A study of Mus musculus with 6 samples.

Results

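The genes described here are the solute carrier (Slc) genes measured in single cells of small-intestinal crypts, and they were chosen by symbol and by total count. A symbol had to start with Slc and a digit and to reach at least 100 counts over the kept cells. A further 12 symbols were left out by name (Slc10a2, Slc51a, Slc51b, Slc5a1, Slc12a2, Slc26a3, Slc26a6, Slc9a3, Slc4a4, Slc39a4, Slc39a5 and Slc30a1). Of 309 Slc symbols in the tables, 127 met the rule and 170 fell under the count minimum, of 19178 symbols in all. The nearest outside were Slc25a26 and Slc2a9 with 96 counts and Slc35f6 and Slc41a2 with 97, and the nearest inside were Slc41a1 with 102, Slc29a1 with 105, Slc45a4 with 106 and Slc37a3 with 107. Among the 127, Slc9a3r1, Slc4a1ap and Slc7a6os encode proteins that carry nothing themselves and hold a carrier's name by history.

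Solute carriers are membrane proteins that move amino acids, sugars, ions, metals, vitamins and metabolites across the plasma membrane and the membranes of organelles, mostly driven by ion or solute gradients and not by ATP. In the small intestine, absorptive enterocytes take nutrients up through carriers of the brush border and pass them to the blood through others of the basolateral membrane. The SLC25 family works in the inner mitochondrial membrane, and much of the SLC35 family brings nucleotide sugars into the Golgi, where mucins and other glycoproteins are built.

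Cells were freshly isolated from crypts of C57BL6 mice aged 10 weeks and profiled by Drop-seq, a droplet method that counts each captured RNA molecule once near its 3′ end, so that levels compare between genes with no correction for length. Mice labelled as lacking Ptger4, the gene of the prostaglandin E2 receptor EP4, in the epithelium (knockout) were set against mice with the floxed gene (flox), and neither received a treatment according to the labels. Each genotype gave 3 collections from 2 biological replicates. Read from their codes, biological replicate 1 gave collections 1 and 2, and biological replicate 2 gave collection 3. Which Cre line was used, and which part of Ptger4 it removes, is not given here.

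Cells were kept at 300 or more detected genes and at most 25% mitochondrial counts, which left 4890 of 13191 barcodes, with 1028412 to 3020164 counts per collection and a median of 1070 to 1471.5 per cell. Levels are given as counts per 1000000 (CPM) in the summed cells of a group. In the collections labelled knockout, Ptger4 had 17.4, 19.1 and 24.5 CPM, and in the flox collections it had 11.9, 13.6 and 15.1 CPM, so the labels were not borne out by lower Ptger4 counts. A 3′ tag outside the deleted part cannot check a deletion, and whether the tag lies outside is not known here, so genotype is given throughout as labelled. Kept barcode sequences were shared by 8 to 26 cells between collections within 2 sets and by 0 across them, 133 kept barcodes in all. The sets, called inferred runs, are knockout 1, flox 1 and flox 2, and knockout 2, knockout 3 and flox 3. They rest on the shared barcodes alone, since no label names a run, and what the sets stand for is not known here. Xist was counted in the third collection of each genotype (1584 and 1457 counts) and at most 11 times in any other, so the sex of the mice differed between collections but not between genotypes. By the codes, this was the same split as that between biological replicates 1 and 2.

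All 127 genes were counted in every collection. Together they made up 0.653% of kept counts, 74639 in all, and stood at 6541, 6406 and 6498 CPM in knockout and 6932, 6150 and 6227 CPM in flox. A few genes carried much of this. Slc25a5 (ANT2, which exchanges ADP and ATP across the inner mitochondrial membrane) alone gave 24.3% of the counts, and the 10 most abundant genes gave 49.4%. The median gene stood at 25.2 CPM, and 106 of the 127 were under 50 CPM.

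The 25 members of the SLC25 family gave 44.3% of the counts. Slc25a5 stood at 1559 ± 148 CPM over all kept cells (SD, n = 4 biological replicates), the phosphate carrier Slc25a3 at 507 ± 61.3 CPM and the ATP-Mg/phosphate carrier Slc25a24 at 94.4 ± 6.26 CPM. Slc25a5 lies on chromosome X and has many near-identical copies in the genome, so its count is uncertain where reads could be shared among them. Among 18 carriers of amino acids and peptides, the levels were led by Slc38a2 (SNAT2, neutral amino acids) at 275 ± 26.7 CPM, Slc1a5 (ASCT2, glutamine) at 84.9 ± 5.60 CPM and Slc43a2 (LAT4, branched-chain and other large amino acids) at 76.4 ± 13.1 CPM.

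Other substrate groups held fewer counts. Slc26a2, a sulfate carrier, led the 12 carriers of inorganic ions at 178 ± 9.39 CPM. Slc35b1, an ATP/ADP exchanger of the endoplasmic reticulum, led the 12 carriers that serve the endoplasmic reticulum and Golgi at 173 ± 17.6 CPM, ahead of the UDP-N-acetylglucosamine carrier Slc35a3 at 57.5 ± 7.26 CPM and the GDP-fucose carrier Slc35c1 at 47.5 ± 2.47 CPM. The taurine carrier Slc6a6 stood at 123 ± 11.6 CPM, the choline carrier Slc44a1 at 90.1 ± 5.67 CPM and Slc31a1, the copper importer CTR1 and the most abundant of 16 metal carriers, at 86.3 ± 10.1 CPM. The 4 carriers of sugars and polyols that met the rule were low, from 13.4 ± 1.88 CPM for the glucose carrier Slc2a1 to 23.7 ± 2.08 CPM for Slc50a1 (SWEET1).

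To place the genes in cell types, the kept cells were clustered with every Slc gene left out of the clustering genes, and 10 of 14 clusters were named in 9 classes by marker genes. The classes were stem cell-like (747 cells), goblet-like (720), enterocyte-like (492), cycling-like (429), B or plasma cell-like (237), Paneth-like (168), T or NK cell-like (151), enteroendocrine-like (95) and tuft-like (54). The stem cell-like cluster had 11 of 17 stem cell markers enriched, 3 of them in its top 10 genes. It also had 21 of 22 cycling markers enriched, against 10 of 22 in the cycling-like cluster. Stem cell-like and cycling-like cells are therefore not a split of resting from dividing cells. Of 4 unnamed clusters, cluster 0 (839 cells) was led by Snord13, cluster 3 (482 cells) by Reg3g and cluster 4 (461 cells) by Gsdmc4 and Gsdmc2, and cluster 13 held 15 cells, 13 of them from knockout 1. The 22 enterocyte markers summed to 47112 CPM in enterocyte-like cells, 12946 and 9635 CPM in clusters 3 and 4, 4638 and 4409 CPM in the goblet-like clusters and 2012 CPM in stem cell-like cells. How much of the lower sums came from free RNA or mixed droplets was not tested. Levels by class are the mean and SD over the collections with at least 10 cells of that class, which is n = 6 except for Paneth-like and enteroendocrine-like cells (n = 5) and tuft-like cells (n = 2). They are a description with no test, since the classes were cut from the same cells. Collections 1 and 2 of a genotype share a biological replicate by their codes, so these SDs mix spread within and between biological replicates.

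Solute carrier genes were most abundant in enterocyte-like cells. All 127 together stood at 10723 ± 553 CPM there, highest in 6 of 6 collections, ahead of goblet-like cells at 6319 ± 354 CPM and down to 4014 ± 407 CPM in B or plasma cell-like cells. Of the 127 genes, 50 (39.4%) had their highest mean level in enterocyte-like cells, beside 15.3% of all 8625 genes with at least 100 counts. In 33 of them (26.0% of the 127, beside 7.28% of all genes) the enterocyte-like level was the highest of all classes in all but at most 1 collection. This stricter rule also asked for at least 20 counts in the class. Goblet-like cells came next with 19 genes (14.96%, beside 6.47% of all genes), 5 of which met that stricter rule (3.94%, beside 1.54% of all genes). With the unnamed clusters 0, 3 and 4 among the groups compared, 24 of the 33 enterocyte-like genes still met the stricter rule (18.9% of the 127, beside 5.62% of all genes), as did the 5 goblet-like genes. The 9 that no longer met it kept their highest mean in enterocyte-like cells and were Slc9a2, Slc6a20a, Slc22a5, Slc52a2, Slc52a3, Slc35g1, Slc25a5, Slc25a10 and Slc25a20.

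The other classes were highest for fewer genes. Of these, 0 met the stricter rule, beside 0.301% (Paneth-like) to 2.24% (enteroendocrine-like) of all genes. Its minimum of 20 counts is harder to reach in small classes, and the part of depth in the 0 was not tested. Enteroendocrine-like cells were highest for 16 (12.6%, beside 17.9% of all genes), tuft-like for 14 (11.02%, beside 17.3%) and T or NK cell-like for 10 (7.87%, beside 12.5%). Paneth-like cells were highest for 8 (6.30%, beside 4.74%), B or plasma cell-like for 7 (5.51%, beside 10.7%), cycling-like for 2 (1.57%, beside 8.14%) and stem cell-like for 1 (0.787%, beside 6.78%). Apart from Paneth-like cells, each of these classes led a smaller share of the 127 than of all genes.

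**Figure D1:**
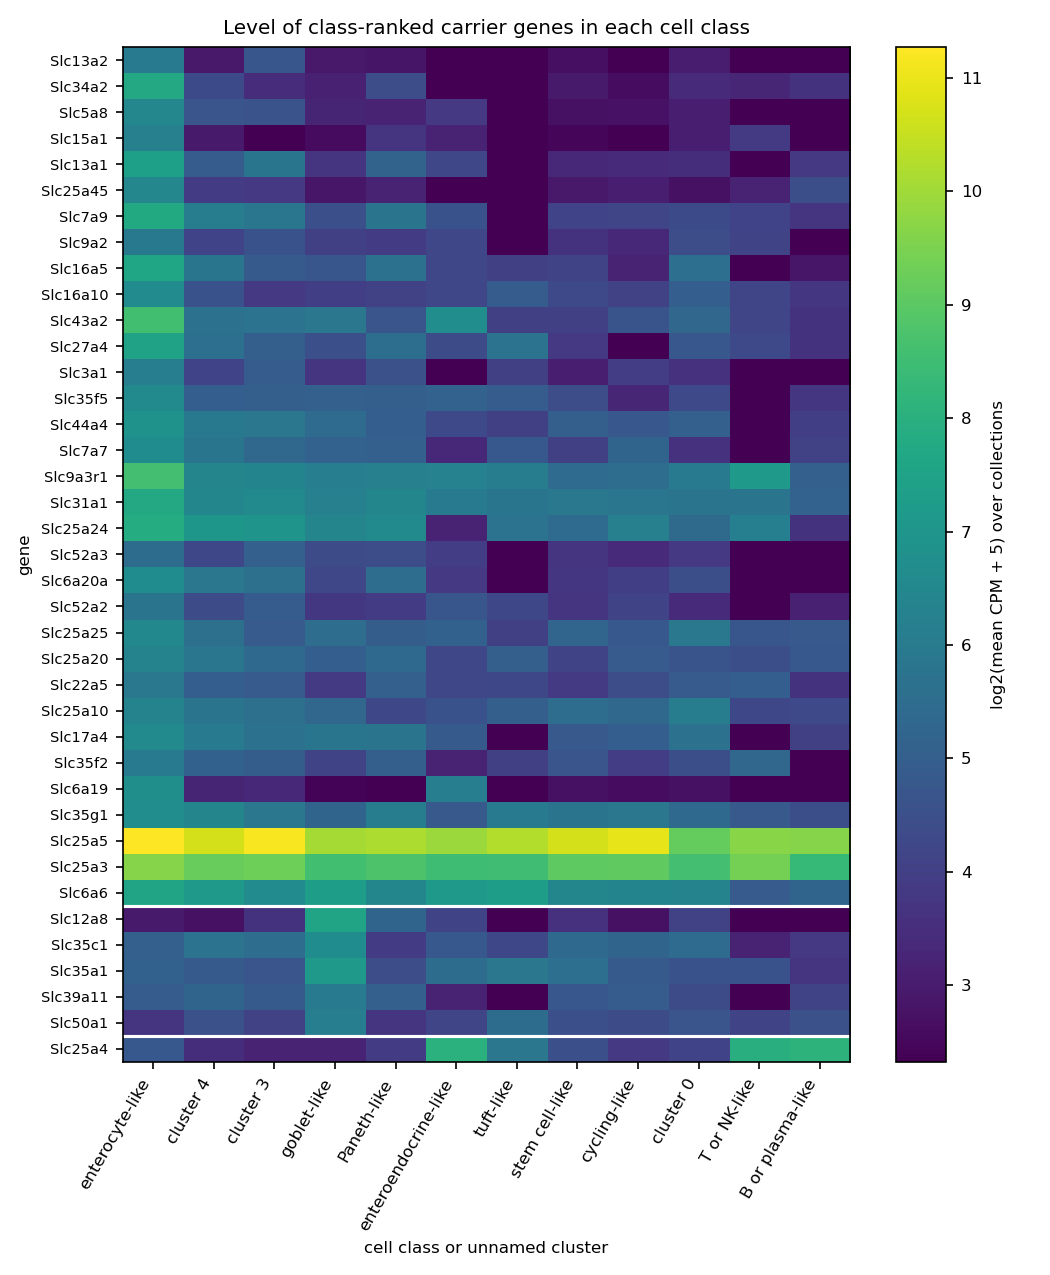
Mean level of 39 Slc genes (rows) in 9 cell classes and 3 unnamed clusters (columns), as log2(CPM + 5), brighter for higher. The 33 genes above the first white line are brightest in the enterocyte-like column, the 5 between the lines in the goblet-like column, and Slc25a4 in the last row is bright in the enteroendocrine-like, T or NK-like and B or plasma-like columns.

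Several carriers of the apical surface were low in the other named classes. Of their kept counts, enterocyte-like cells gave 82 of 119 for Slc13a2, 276 of 337 for Slc34a2, 118 of 193 for Slc5a8 and 98 of 113 for Slc15a1. These genes met the minimum of 100 counts only through that class, so their low levels elsewhere are in part set by the rule. Slc13a2 (NaDC1), a sodium-coupled carrier of citrate and succinate, stood at 57.5 ± 21.9 CPM in enterocyte-like cells and at 2.56 ± 2.82 CPM in goblet-like cells, the next named class, but cluster 3 lay between at 21.6 ± 16.9 CPM. Slc34a2, the sodium-phosphate carrier NaPi-IIb (GRCm38 chr5:53038081-53071664, plus strand), had 247, 179.6 and 159 CPM in enterocyte-like cells of the knockout collections (1 to 3) and 259.8, 268 and 120.3 CPM in those of flox, from 276 counts. Every one of the 6 values lay above the highest value in goblet-like cells (5.69 CPM) and in stem cell-like cells (7.26 CPM). Slc5a8, a sodium-coupled carrier of short-chain monocarboxylates, had 83.5 ± 23.9 CPM in enterocyte-like and 1.63 ± 1.81 CPM in stem cell-like cells, with 19.6 ± 14.9 and 20.6 ± 10.7 CPM in clusters 3 and 4. The peptide carrier Slc15a1 (PEPT1) had 69.2 ± 24.0 CPM, and its next class, T or NK cell-like cells, had 9.22 ± 22.6 CPM from 1 collection with counts, so that it was highest in 5 of 6 collections.

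A sulfate carrier of the brush border, Slc13a1, reached 162 ± 28.2 CPM in enterocyte-like cells. It came next in cluster 3 at 51.0 ± 28.4 CPM, where Slc34a2 stood at 6.07 ± 6.84 CPM. The sodium-proton exchanger Slc9a2 stood at 56.4 ± 16.8 CPM. The fatty acid carrier Slc27a4 (FATP4) was counted at 175 ± 48.3 CPM in enterocyte-like and 8.88 ± 5.90 CPM in stem cell-like cells, whereas Slc27a2 (FATP2) was lower in enterocyte-like (11.4 ± 4.78 CPM) than in stem cell-like cells (43.7 ± 12.7 CPM), the only gene of the 127 with its highest mean there, in 4 of 6 collections. Its level in Paneth-like cells was almost the same (43.5 ± 41.6 CPM), and with clusters 0, 3 and 4 included the stem cell-like level was highest in 2 of 6 collections.

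Amino acid carriers summed to 1615 ± 164 CPM in enterocyte-like cells and 919 ± 90.4 CPM in goblet-like cells, with enterocyte-like cells highest in 6 of 6 collections. Of the 18, 10 were highest in enterocyte-like cells, and 8 of these met the stricter rule. Slc7a9, the light chain of the brush border carrier of cystine and basic amino acids, stood at 209 ± 72.4 CPM there, and its heavy chain Slc3a1 at 66.0 ± 24.8 CPM. Of the 179 kept counts of Slc3a1, 80 came from enterocyte-like cells, so it met the count minimum only through that class. Slc43a2 reached 373 ± 49.9 CPM, against 54.2 ± 8.32 CPM in goblet-like and 11.3 ± 6.48 CPM in stem cell-like cells. On the same scale the basolateral carriers Slc7a7 (y+LAT1, basic amino acids) and Slc16a10 (TAT1, aromatic amino acids) stood at 96.1 ± 28.0 and 95.6 ± 63.6 CPM.

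The carrier of neutral amino acids Slc6a19 (B0AT1) had 104 ± 14.7 CPM in enterocyte-like cells and 65.6 ± 33.5 CPM in enteroendocrine-like cells. In stem cell-like and cycling-like cells it was near the level of single counts (1.58 and 1.21 CPM). Of its 169 kept counts, 140 came from enterocyte-like cells, so it too met the count minimum only through that class.

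Some amino acid carriers ran the other way. Slc1a5 stood at 16.7 ± 9.39 CPM in enterocyte-like cells, below 138 ± 20.2 CPM in goblet-like, 94.8 ± 13.6 CPM in stem cell-like and 176 ± 152 CPM in T or NK cell-like cells. Its enterocyte-like values ran from 2.85 to 29.8 CPM and its stem cell-like values from 78.0 to 116 CPM, with no overlap. The carrier of basic amino acids Slc7a1 showed 15.2 ± 13.7 CPM in enterocyte-like and 60.3 ± 18.5 CPM in stem cell-like cells. Slc3a2, the heavy chain that several amino acid carriers of the SLC7 family need to reach the plasma membrane, was highest in T or NK cell-like cells (263 ± 134 CPM) and stood at 151 ± 36.7 CPM in enterocyte-like cells.

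The 3 genes Slc3a1, Slc7a9 and Slc7a7, all of basic amino acid transport and highest in enterocyte-like cells, also shared a short motif near the start of the gene. Promoter sequences came from RefSeq (GRCm38.p6, 250 bases before to 50 bases after each start), where 96 of the 127 genes matched. The letters CAAAGNCCA and their reverse complement TGGNCTTTG, a pattern of the type that HNF4 factors bind, were found in 650 of 32851 promoters (1.98%) and in 4 of the 35 promoters of the 26 matched genes that met the stricter enterocyte rule. Those 4 belong to these 3 genes and hold 3 sites, since the promoters of Slc7a9 overlap and share a single site. For each gene 1 promoter is shown, with the motif in capitals, read 5′ to 3′ on the gene's strand at chr17:85028097-85028396 (plus), chr7:35448842-35449141 (plus) and chr14:54409423-54409722 (minus). A match describes letters and not a bound site, and the genes were picked after the search.
Slc3a1: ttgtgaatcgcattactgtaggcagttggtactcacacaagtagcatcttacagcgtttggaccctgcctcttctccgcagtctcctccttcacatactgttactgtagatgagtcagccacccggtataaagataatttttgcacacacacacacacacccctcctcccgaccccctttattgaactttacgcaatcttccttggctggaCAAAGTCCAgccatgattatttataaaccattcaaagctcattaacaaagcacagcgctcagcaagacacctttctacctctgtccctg
Slc7a9: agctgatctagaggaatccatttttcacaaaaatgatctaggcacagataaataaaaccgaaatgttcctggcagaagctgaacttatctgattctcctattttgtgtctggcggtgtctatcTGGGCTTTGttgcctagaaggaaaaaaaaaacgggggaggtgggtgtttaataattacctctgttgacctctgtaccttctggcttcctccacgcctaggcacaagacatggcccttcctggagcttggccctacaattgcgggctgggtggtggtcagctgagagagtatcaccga
Slc7a7: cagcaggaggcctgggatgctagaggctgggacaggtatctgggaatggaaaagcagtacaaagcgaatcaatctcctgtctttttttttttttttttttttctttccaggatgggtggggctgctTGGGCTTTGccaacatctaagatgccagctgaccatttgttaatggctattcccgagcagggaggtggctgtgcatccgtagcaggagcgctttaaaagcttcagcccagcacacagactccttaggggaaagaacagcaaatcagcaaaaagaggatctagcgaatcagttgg
The same search for the CDX-type letters GCAATAAA (0.974% of all promoters, both strands) found 0 of the 35, and that for the GATA-type letters AGATAAG (3.04%) found 2, in Slc25a5 and Slc7a9.

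Of 7 carriers of vitamins, choline, carnitine and heme, 5 were highest in enterocyte-like cells, as were 4 of 7 carriers of organic ions and amines and 4 of 16 metal carriers. Slc44a4, a choline-like carrier, stood at 117 ± 32.1 CPM, the riboflavin carriers Slc52a2 and Slc52a3 at 49.8 ± 11.6 and 39.6 ± 19.3 CPM, and the carnitine carrier Slc22a5 at 54.9 ± 15.6 CPM. Copper importer Slc31a1 was counted in every class and was highest in enterocyte-like cells at 208 ± 56.4 CPM, against 55.6 ± 13.6 CPM in stem cell-like cells. The 16 metal carriers summed to 577 ± 89.2 CPM in enterocyte-like and 469 ± 53.3 CPM in goblet-like cells. Without Slc31a1 the other 15 stood at 369 ± 49.0 and 399.9 ± 40.1 CPM, so that goblet-like cells were then the higher. The scaffold protein Slc9a3r1 (NHERF1), which anchors carriers at the brush border, reached 387 ± 42.2 CPM, compared with 136 ± 52.9 CPM in T or NK cell-like and 38.8 ± 8.90 CPM in stem cell-like cells. Slc40a1, the iron exporter ferroportin, did not follow this order and had 45.1 ± 17.7 CPM in cluster 3, 20.6 ± 12.8 CPM in Paneth-like and 19.2 ± 14.3 CPM in enterocyte-like cells.

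**Figure D2:**
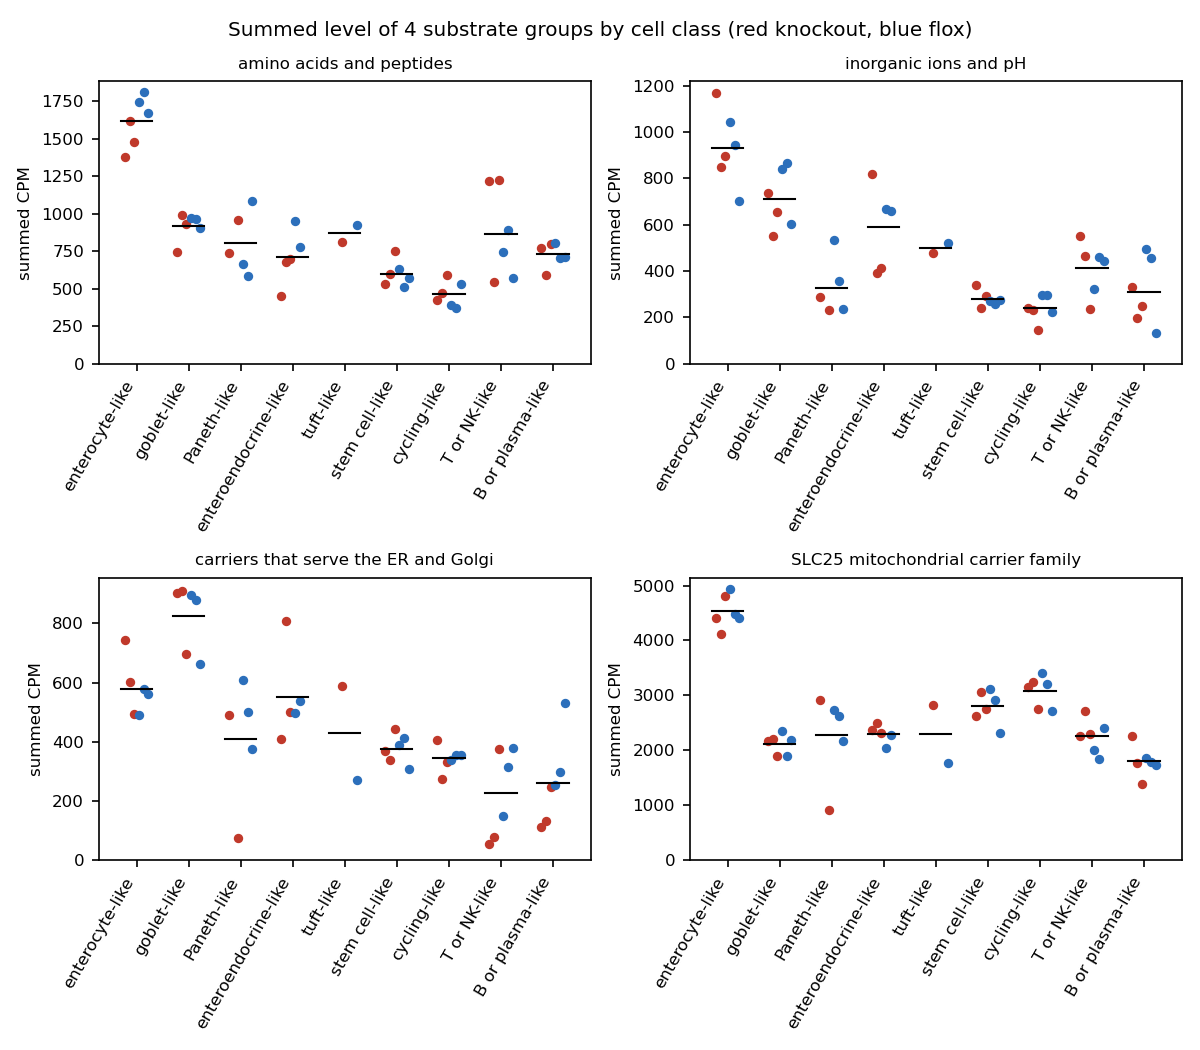
Summed level of 4 substrate groups (vertical axes, CPM from 0) in 9 cell classes (horizontal axes), 1 point per collection with at least 10 cells of the class, red for knockout and blue for flox, with a line at the mean. Enterocyte-like points lie highest for amino acid carriers and the SLC25 family, and goblet-like points for carriers that serve the endoplasmic reticulum and Golgi.

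Goblet-like cells led the carriers that serve the endoplasmic reticulum and Golgi. The 12 genes, most of them of the SLC35 family, summed to 824 ± 113 CPM there and to 578 ± 93.3 CPM in enterocyte-like cells, the next class, with goblet-like cells highest in 6 of 6 collections. Without the ATP/ADP exchanger Slc35b1 the other 11 summed to 556 ± 72.2 CPM in goblet-like and 334 ± 51.7 CPM in enterocyte-like cells. Of the 12, 5 were highest in goblet-like cells. Slc35a1, which carries CMP-sialic acid, stood at 137 ± 57.6 CPM against 42.9 ± 20.8 CPM in stem cell-like cells. Slc35c1 stood at 96.2 ± 17.0 CPM against 36.9 ± 10.6 CPM, and the UDP-galactose carrier Slc35a2 at 73.1 ± 22.2 CPM against 23.2 ± 8.43 CPM. Tuft-like cells came close for Slc35a2 at 64.7 ± 27.5 CPM (n = 2), and goblet-like cells were highest for it in 4 of 6 collections.

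Outside that group the sharpest goblet-like gene was Slc12a8, a member of the cation-chloride cotransporter family (GRCm38 chr16:33517328-33664135, plus strand). In goblet-like cells it was counted at 203, 146 and 140.5 CPM in knockout and 193, 285 and 114 CPM in flox collections, 360 counts in all. It had 415 counts over all kept cells, so it met the count minimum only through this class. All 6 values exceeded the highest value in enterocyte-like (6.19 CPM) and stem cell-like cells (12.0 CPM). Paneth-like cells came next at 31.6 ± 29.0 CPM. The zinc carrier Slc39a11 and the sugar carrier Slc50a1 stood at 58.9 ± 17.8 and 66.7 ± 22.4 CPM in goblet-like cells, and Slc50a1 was lowest in enterocyte-like cells at 7.57 ± 12.3 CPM. Slc17a9, a vesicular nucleotide carrier, had 44.8 ± 21.6 CPM in goblet-like and 2.15 ± 2.6 CPM in enterocyte-like cells. With 128 counts over all kept cells, it too met the count minimum only through goblet-like cells.

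The mitochondrial family followed a different order from the other 102 genes. Its 25 members summed to 4528 ± 294 CPM in enterocyte-like cells, then 3081 ± 287 CPM in cycling-like and 2798 ± 299 CPM in stem cell-like cells, and 2119.6 ± 179.9 CPM in goblet-like cells. The other 102 genes stood at 6195 ± 347, 2179.9 ± 164, 2516 ± 205 and 4199.7 ± 239.7 CPM in the same classes. Among the 9 named classes, with the unnamed clusters not ranked, cycling-like cells were thus second for the family and last for the rest. Within the family, Slc25a5 stood at 2472 ± 198 CPM in enterocyte-like, 1954 ± 252 CPM in cycling-like and 1058 ± 136 CPM in goblet-like cells. It made up much of the family sums in these classes, and its count is uncertain for the reason given above. Whether the order of the family holds without Slc25a5 was not tested. Slc25a24, by contrast, had 227 ± 39.4 CPM in enterocyte-like and 4.37 ± 9.76 CPM in enteroendocrine-like cells.

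Slc25a4 (ANT1, GRCm38 chr8:46206797-46211284, minus strand), an ADP/ATP carrier gene like Slc25a5, was low over all kept cells at 22.1 ± 7.01 CPM and highest in small classes. It stood at 259 ± 74.6 CPM in enteroendocrine-like, 241 ± 171 CPM in T or NK cell-like and 268 ± 110.4 CPM in B or plasma cell-like cells. Goblet-like cells had 4.30 ± 5.41 CPM, cycling-like cells 8.88 ± 9.47 CPM, stem cell-like cells 17.8 ± 7.95 CPM and enterocyte-like cells 22.9 ± 17.1 CPM. Its lowest value in the collections of enteroendocrine-like cells (131 CPM) was above its highest in enterocyte-like cells (53.5 CPM).

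**Figure D3:**
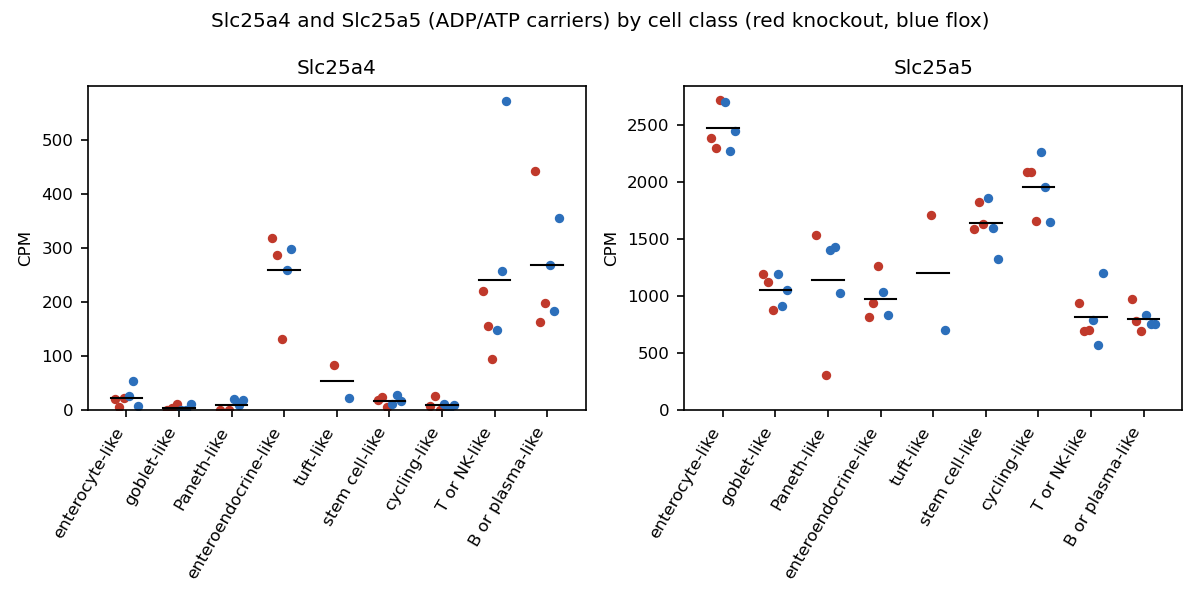
Level (CPM, vertical axes from 0) of Slc25a4 and Slc25a5 in 9 cell classes, 1 point per collection with at least 10 cells of the class, red for knockout and blue for flox, with a line at the mean. Slc25a4 is high in enteroendocrine-like, T or NK-like and B or plasma-like cells, where Slc25a5 is low.

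Small classes held few counts of these genes, and their highest levels carry wide spreads. In enteroendocrine-like cells the thiamine carrier Slc19a2 stood at 72.7 ± 129 CPM from 8 counts and Slc26a2 at 348 ± 189 CPM, close to its 300.1 ± 86.8 CPM in goblet-like and 301 ± 70.9 CPM in enterocyte-like cells. The magnesium carrier Slc41a1 had 62.1 ± 35.4 CPM in T or NK cell-like and 56.1 ± 75.0 CPM in B or plasma cell-like cells, against 3.34 ± 4.81 CPM in enterocyte-like cells. The choline carrier Slc44a1 was spread evenly over the epithelium, from 63.2 CPM in Paneth-like to 116 CPM in cluster 4, and stood at 4.13 CPM in T or NK cell-like and 6.04 CPM in B or plasma cell-like cells.

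Within the enterocyte-like cells, sub-clusters made without Slc genes differed in markers of gut segment. One of 130 cells carried 13 of 15 enriched markers of the proximal small intestine, and one of 200 cells carried the highest sum of ileum markers (32908 against 8228 CPM) but only 2 of 11 of them enriched, so it was left unnamed. Its top genes held the carrier genes Slc40a1 and Slc13a1. They also held Saa1, Lars2 and the transcripts Gm24270, Gm24187 and mmu-mir-6236, the last 3 of which also stood in the top genes of cluster 0. Its cells had a median of 1474.5 counts and 6.67% mitochondrial counts, against 1682 and 4.53% in the proximal-like cells, and the part of RNA quality in the differences below was not tested. Of 64 genes with at least 50 counts in enterocyte-like cells, 14 were higher in the proximal-like sub-cluster in all 6 collections and 3 in the other sub-cluster, beside 6.92% and 6.08% of 3817 genes, with 12 to 54 cells per collection and sub-cluster. Higher in the proximal-like cells were Slc6a19 (229 ± 72.2 against 86.0 ± 37.4 CPM), Slc34a2 (353 ± 130.0 against 147 ± 63.1 CPM), the creatine carrier Slc6a8 (179 ± 82.2 against 55.4 ± 12.5 CPM) and Slc15a1 (124 ± 65.7 against 40.2 ± 19.1 CPM). The 3 that ran the other way were Slc13a1 (39.9 ± 42.7 against 295 ± 91.2 CPM), Slc44a4 (60.6 ± 31.7 against 147 ± 37.4 CPM) and the glutamate carrier Slc1a1 (21.3 ± 25.1 against 65.2 ± 43.7 CPM). For Slc1a1 this rested on 6 counts in the proximal-like and 25 in the other sub-cluster, near the level of single counts per collection.

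The study's question was how crypt cells differ when the epithelium lacks Ptger4. Counts were summed per biological replicate, 2 sums of collections labelled knockout against 2 of flox, and tested over all genes with edgeR's quasi-likelihood test and Benjamini-Hochberg adjustment at 0.05. In all kept cells, 0 of the 127 genes passed, beside 0.00947% of the 10555 genes tested, which is 1 gene, the metallothionein Mt1. DESeq2 called 0 of the 127 as well, and 0 of them had an unadjusted p under 0.05, beside 2.23% of all genes tested. By log2 fold change (knockout over flox), 63 were higher and 64 lower, with a median of -0.0010 beside 0.0019 over all genes tested.

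Standard errors of the edgeR values were worked back from the log2 fold change and the F value of the test. Their median was 0.25 on the log2 scale. For 113 of the 127 genes the approximate 95% interval (1.96 standard errors either way) lay within 1 log2 unit, a 2-fold change, of no difference. With 2 sums per genotype such intervals are too narrow, so 113 is an upper bound. For Slc26a2 in enterocyte-like cells the interval ran from 0.026 to 0.93, though edgeR's unadjusted p was 0.058. The lowest value was -0.62 (SE 0.30) for Slc16a10 and the highest 0.68 (SE 0.36) for the peptide carrier Slc15a2. The collections of both genotypes did not overlap for 7 of the 127 genes (3 higher, 4 lower), 5.51% beside 7.01% of all genes tested. Most abundant of these was Slc35a3, and Slc25a20, the mitochondrial carnitine-acylcarnitine carrier, was counted at 46.2, 36.0 and 32.3 CPM in knockout and 30.8, 19.4 and 26.4 CPM in flox.

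By substrate, medians in all kept cells ran from -0.22 in the 3 carriers of fatty acids and acetyl-CoA to 0.27 in the 3 of nucleosides, and 0 members of any group passed. In the largest groups the median was 0.02 in the SLC25 family, -0.02 in amino acid carriers and -0.04 in metal carriers. Among the metal carriers, 5 of 16 were higher, and the largest difference was that of the zinc carrier Slc30a2, counted at 12.1, 11 and 17.4 CPM in knockout and 9.27, 7.78 and 9.90 CPM in flox, with no overlap, a log2 fold change of 0.66 (SE 0.35) and an adjusted p of 1. In mixed cells, fewer cells of a type and less RNA per cell cannot be told apart. The share of Paneth-like cells was 2.06% ± 0.686 (SD, n = 2) in knockout and 4.72% ± 1.02 in flox, that of enteroendocrine-like cells was 2.51% ± 0.235 and 1.25% ± 0.548, and their part in the values above was not tested.

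**Figure D4:**
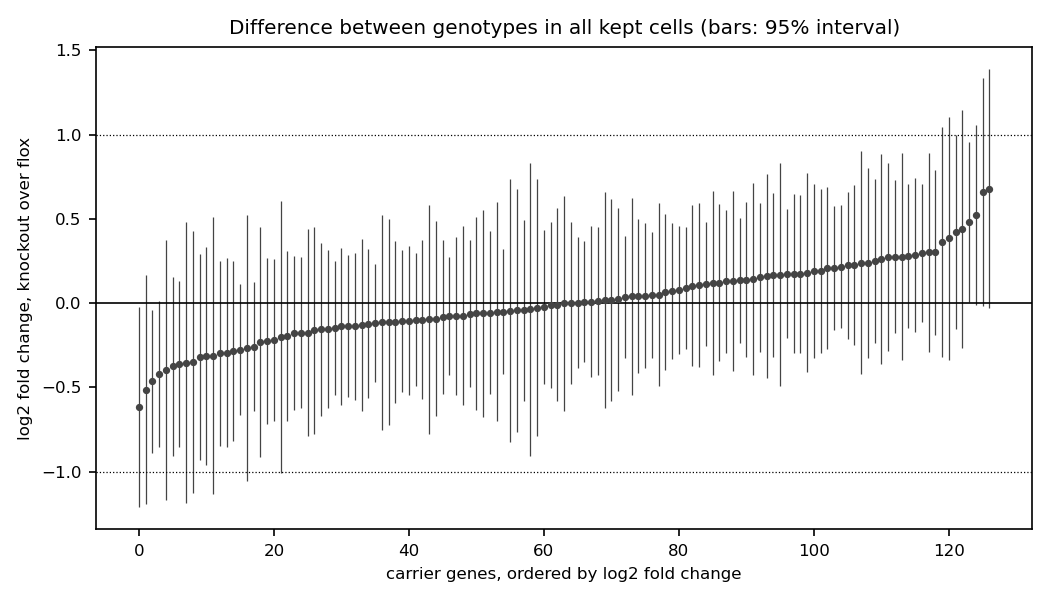
Log2 fold change of knockout over flox (vertical axis) for the 127 genes in all kept cells, ordered from lowest to highest along the horizontal axis, with bars of the approximate 95% interval and dotted lines at 1 and -1. All points lie between -0.62 and 0.68, and 0 of the 127 genes passed the test.

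Within enterocyte-like cells, where the carriers were highest, 70 of the 127 genes passed the filter on low counts and 0 passed the test, beside 0.0218% of the 4581 genes tested. DESeq2 also called 0. An unadjusted p under 0.05 was reached by 5 of the 70 genes, beside 4.43% of all genes tested, and 6 of them had collections that did not overlap, beside 10% of all genes tested. The median log2 fold change was -0.05 over the 70 genes and 0.00 over all tested. Of the 13 amino acid carriers tested, 4 were higher in knockout and the median was -0.18. In goblet-like cells 4 of 11 were higher, and in stem cell-like cells 6 of 7. Of the carriers of inorganic ions, 7 of 7 were higher, from 0.01 to 0.48 with a median of 0.10. In goblet-like cells 3 of 9 of these were higher, and in stem cell-like cells 3 of 6.

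The largest of these differences was that of Slc16a10 (GRCm38 chr10:40033532-40142258, minus strand). It was counted in enterocyte-like cells at 38.3, 49.5 and 64.5 CPM in the 3 knockout collections and 68.5, 182 and 171 CPM in the 3 flox collections. The knockout values were all below the flox values, though flox collection 1 was only just above them. The log2 fold change was -1.23 (SE 0.39) with an adjusted p of 0.834 in edgeR's test, so it did not pass. Without flox collection 1 it did pass, at -1.72 with an adjusted p of 0.00935 in edgeR, and without flox biological replicate 1 at -1.69 with an adjusted p of 0.0246, where the lone flox sum was assumed to vary like the others. It was -1.37 and -1.51 within the inferred runs, and adjusted p ran from 0.00935 to 0.9998 over 21 alternatives.

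Slc16a10 was also higher in the proximal-like sub-cluster (203 ± 127 against 55.6 ± 42.0 CPM, higher in 5 of 6 collections). That sub-cluster held 23 of 88, 20 of 71 and 12 of 78 enterocyte-like cells in knockout and 28 of 109, 14 of 40 and 33 of 106 in flox. Of 13 proximal markers tested in enterocyte-like cells, 3 were higher in knockout, with a median log2 fold change of -0.20. Inside the sub-cluster, Slc16a10 stood at 17.1, 136 and 240.3 CPM in knockout and 159, 285 and 381 CPM in flox, where the genotypes overlapped. The part of the sub-cluster mix in the difference was not tested.

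Of the other enterocyte-like genes with the smallest unadjusted p, Slc1a1 was counted at 12.8, 61.9 and 34.1 CPM in knockout and 97.1, 74.9 and 58.2 CPM in flox, and its log2 fold change was -1.16 (SE 0.40) with an adjusted p of 0.942 in edgeR. Knockout collection 2 lay above flox collection 3, so the genotypes overlapped, and within the inferred runs the value was -2.69 and -0.32. Slc27a4 had 93.7, 186 and 148 CPM in knockout and 219.8, 182 and 221 CPM in flox, with a log2 fold change of -0.59 (SE 0.25) and overlapping collections.

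On the higher side in knockout, Slc25a20 was counted at 93.7, 105 and 91.0 CPM and in flox at 59.9, 53.5 and 42.7 CPM. All 3 knockout values were above all 3 flox values. Its log2 fold change of 0.92 (SE 0.33) had an adjusted p of 0.991 in edgeR and stayed between 0.77 and 1.21 over 21 alternatives, in 0 of which it passed. Slc52a3, a riboflavin carrier, had 46.8, 61.9 and 56.9 CPM in knockout and 34.3, 10.7 and 27.2 CPM in flox, again with no overlap, a log2 fold change of 0.99 (SE 0.43) and an adjusted p of 0.991. For the sulfate carrier Slc26a2 the collections overlapped, at 426, 279 and 303 CPM against 277, 310.5 and 209 CPM, and the log2 fold change was 0.48 (SE 0.23).

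**Figure D5:**
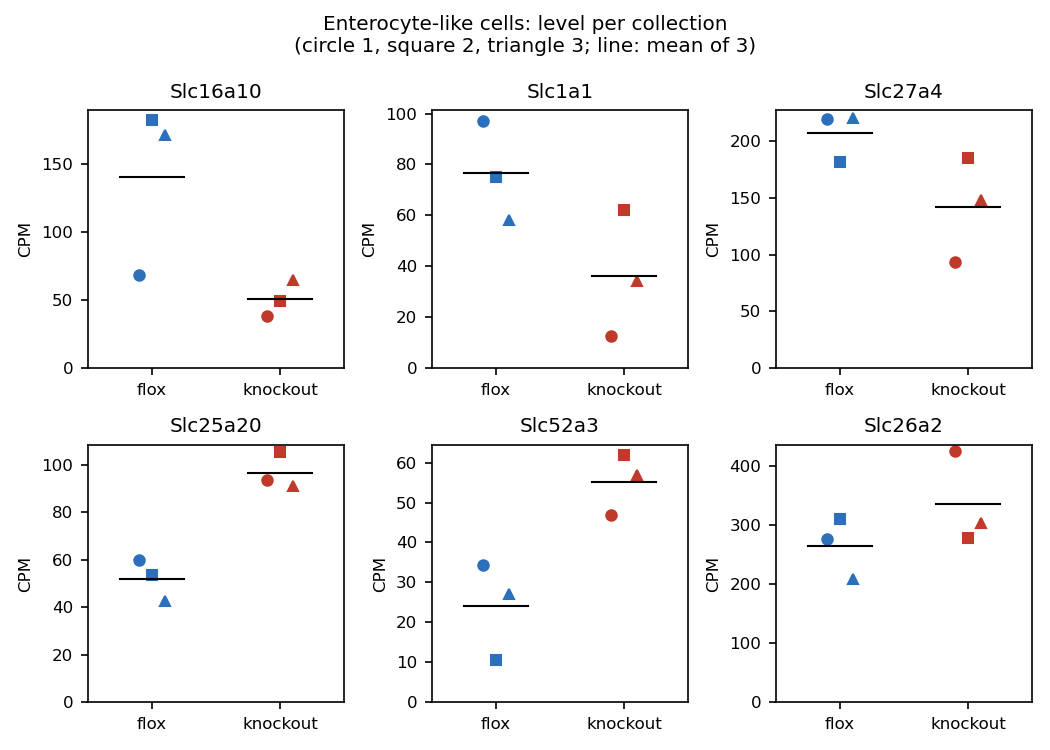
Level (CPM, vertical axes from 0) of 6 Slc genes in enterocyte-like cells of each collection (circle 1, square 2, triangle 3), flox in blue and knockout in red, with a line at the mean of 3 collections. Slc16a10, Slc25a20 and Slc52a3 do not overlap between genotypes, and 0 of the 6 genes passed the test.

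In goblet-like cells 88 genes were tested and 0 passed (0 by DESeq2), beside 0.0155% of the 6468 genes tested, and 1 had an unadjusted p under 0.05, beside 1.92%. The collections did not overlap for 6 of the 88, beside 6.79%. The 5 sharpest goblet-like genes are among those tested, and the log2 fold change was -0.09 (SE 0.31) for Slc12a8, -0.15 (SE 0.31) for Slc35c1 and 0.31 (SE 0.35) for Slc35a1. Among the genes with the smallest unadjusted p, the metal carrier Slc39a14 stood at 0.91 (SE 0.39) and the vesicular nucleotide carrier Slc17a9 at 0.66 (SE 0.40), while the zinc carrier Slc30a6 stood at -1.10 (SE 0.57), Slc10a7 at -1.02 (SE 0.51) and the metal carrier Slc39a8 at -0.76 (SE 0.42). The scaffold gene Slc9a3r1 had 0.55 (SE 0.33), but its value was -0.22 within the first inferred run and 0.89 within the second.

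In stem cell-like cells 69 genes were tested and 0 passed (0 by DESeq2), beside 0.0293% of the 6827 genes tested, and 0 had an unadjusted p under 0.05, beside 2.55%. The collections did not overlap for 6 of the 69, beside 7.98%. Of these, 40 were higher and 29 lower in knockout, with a median log2 fold change of 0.07 beside 0.01 over all genes tested. The largest differences among the genes with the smallest unadjusted p were 0.93 (SE 0.46) for Slc35b3, a carrier of the sulfate donor PAPS, and -0.75 (SE 0.47) for Slc50a1. The mitochondrial iron carrier Slc25a37 stood at -0.62 (SE 0.41).

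Few genes could be tested in the other classes. In cycling-like cells 8 were tested and 0 passed, beside 0.14% of 2150 genes, and 0 had an unadjusted p under 0.05, beside 5.02%, with values from -0.56 (SE 0.47) for Slc44a1 to 0.59 (SE 0.48) for the mitochondrial glutathione carrier Slc25a39. In Paneth-like cells 3 were tested and 0 passed, beside 0% of 850 genes, and 0 had an unadjusted p under 0.05, beside 0.471%, at -0.64 (SE 0.47) for Slc25a3, -0.35 (SE 0.46) for Slc25a5 and 0.65 (SE 0.67) for Slc38a2. Clusters 0, 3 and 4, added after the data were seen, gave 0 passing of 30, 18 and 78 genes, beside 0.08%, 0.0722% and 0.0179% of all genes tested. An unadjusted p under 0.05 was reached by 0, 0 and 5 of them, beside 3.52%, 3.94% and 3.84%. A test of whether the genotype effect differed between enterocyte-like and stem cell-like cells, with the biological replicate as a block, passed for 0 of 97 Slc genes and 0 of 6711 genes (0%), and 5 of the 97 had an unadjusted p under 0.05, beside 238 of all 6711.

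Genes that work with carriers gave the same counts of calls. Of 12 listed partner proteins, 9 were tested in all kept cells and 0 passed, with a median log2 fold change of -0.12. Among these was Bsg (basigin), which brings monocarboxylate carriers to the membrane. The sodium pump and the potassium channels beside it (7 tested, median 0.01), the ABC transporters (18 tested, median -0.06), the aquaporins (3 tested, median -0.06) and carriers with other symbols such as the mitochondrial pyruvate carriers Mpc1 and Mpc2 (24 tested, median 0.13) also had 0 passing. Of all 10555 genes tested, 0.00947% passed, so 0 in lists of this size tells little about these genes.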

How the data were processed

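Single-cell RNA was counted by Drop-seq in 6 collections, 3 per genotype. The values deposited by the authors are raw counts, 1 whole number for each gene in each barcode. Reads were aligned with STAR 2.6 to mm10, per the submitters' processing notes. Counting settings, strand use and annotation are not given here. The genes, gene lists and rules were chosen with earlier results of these data known, and genes named outside the rule (by level, class or smallest p) were chosen after their values were seen. Some genes that met the naming rule are not reported here.

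Kept cells (at least 300 genes, at most 25% mitochondrial counts) were scaled to 10000 counts, log-transformed and clustered in scanpy 1.11.5 from 2000 variable genes without Slc or mitochondrial genes, 30 principal components and 15 neighbours, with the Leiden algorithm at resolution 1.0. No doublet caller was run and doublets were not removed. A cluster was named when at least 3 markers of a class were enriched 1.5-fold and detected in 10% of its cells, and either 2 such markers stood in its top 10 genes or 50% of those measured were enriched. Counts were summed per biological replicate (n = 2 per genotype) and tested with edgeR 4.0.16 (TMM, filterByExpr at a minimum count of 10) in every class whose 4 sums each held 20 or more cells. Nothing in the labels says whether a biological replicate is 1 mouse or a pool. Tested on simulated data with 10629 genes, the all-cell comparison recovered 96% of genes changed by 2 log2 units and 100% of those changed by 3. The simulated spread between sums was assumed, not estimated from these data, and only well-counted genes were changed. Smaller changes were not simulated, so the check does not bear on differences of the size seen here, at most 0.68 in all kept cells.

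Alternatives were DESeq2 1.42.0, no filter, replicate blocks, single collections, 500 genes per cell, no barcode over 20000 counts, each collection left out, resolution 0.6 and clustering with Slc genes. Shared barcodes left out and inferred runs were added after the data were seen. Gene positions come from a GENCODE annotation of GRCm38, in which 127 of 127 symbols were found.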

Additional observations from a re-analysis of the deposited data

How the results depend on the processing

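The count of Slc genes past the threshold was 0 in all kept cells, in each tested class and in clusters 0, 3 and 4 under the alternatives run, with 1 exception. In enterocyte-like cells it ran from 0 to 1 when a collection or a biological replicate was left out, the 1 being Slc16a10 without flox collection 1 and without flox biological replicate 1. Of 623 alternative values of 33 genotype differences, 612 kept their direction and 11 reversed, all in values that did not pass the test, and the cause was not tested. In Paneth-like cells, leaving out knockout collection 3 moved Slc38a2 to -0.28 and Slc25a5 to 0.041, and leaving out each collection in turn gave -0.28 to 1.19 and -0.88 to 0.041. In cycling-like cells Slc38a2 went to -0.17 at 500 genes, -0.028 and -0.069 without knockout collections 2 and 3 (-0.069 to 0.67 over all collections left out), -0.16 without flox biological replicate 1, -0.045 with the inferred run as a term and -0.0073 at resolution 0.6. In the same cells Slc35b1 went to -0.039 without flox biological replicate 1 and Slc26a2 to 0.20 at resolution 0.6, and in goblet-like cells Slc9a3r1 went to -0.22 within the first inferred run. With the biological replicate number or the collection number as a replicate block, 0 Slc genes passed in any comparison. The labels do not say that a number marks a shared animal, litter or day. Deviations of same-numbered collections correlated at -0.12, 0.03 and 0.35, and those of differently numbered collections from -0.30 to 0.24. Those of same-numbered biological replicates correlated at 0.32. Biological replicate 2 was the third collection of each genotype, and only these collections held Xist at 1584 and 1457 counts. A pairing by biological replicate and a split by sex cannot be told apart here, and the main test had no term for either. Over all genes, the replicate block by biological replicate raised the calls from 1 to 3 in all kept cells, from 2 to 53 in stem cell-like cells, from 1 to 19 in enterocyte-like cells, from 1 to 4 in goblet-like cells, from 2 to 22 in cluster 3 and from 1 to 31 in cluster 4, and no filter raised them to 35 in all kept cells. The summed level of the 127 genes stayed between 6380 and 6594 CPM when a collection was left out, against 6526 CPM.

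The class of highest level held for 38 of 38 genes of the stricter rule with Slc genes in the clustering, where the cycling-like class was not found, and at 500 genes per cell, and for 36 of 38 at resolution 0.6, where the stem cell-like class was not found. Over all genes compared it held for 114 of 125, 99 of 127 and 107 of 126. Depth limits the small classes: 57 of 127 genes could not be tested in enterocyte-like cells and 119 in cycling-like cells.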
